A study of Mus musculus with 4 samples.

Results

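The 9 genes described here, *Nppa*, *Myl7*, *Myl4*, *Sln*, *Bmp10*, *Nr2f2*, *Nr2f1*, *Pam* and *Dkk3*, are expressed mainly in atrial myocytes or are used to recognise them. They were found among the 24454 genes of the count table by matching Entrez Gene identifiers to symbols, and all 9 passed the filter on low counts that left 14266 genes for testing. They were chosen with the values of these libraries known, because the 2 Ctrl libraries differed in them. That difference is therefore given as a description, and it was not tested.

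RNA-seq was performed on total RNA from mouse hearts at P7, with 2 Ctrl libraries (WH7 and WH8) and 2 *miR-128*OE libraries (WH9 and WH10). The *miR-128*OE mice carried *α-MHC*-tTA together with *miR-128*TetRE, a Tet-off pair in which the tetracycline transactivator is made in cardiomyocytes from the *α-MHC* promoter and switches on *miR-128* from the Rosa26 locus when doxycycline is withdrawn. The Ctrl mice carried *miR-128*TetRE without the transactivator, so the transactivator and the miRNA cannot be told apart in this comparison. All mice were kept on a C57BL/6 background. The *α-MHC* promoter is active in atrial as well as ventricular myocytes. The study describes its RNA-seq of wild-type mice over postnatal time as made from ventricles, whereas the labels of these 4 libraries say hearts. The doxycycline schedule of these hearts, the number of animals behind a library and the amount of atrial tissue kept in these hearts at dissection are not given in the sources used here, so p-values measure only the spread between these libraries, which may be technical.

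Atrial and ventricular cardiomyocytes share most of their contractile machinery and differ in a small set of genes. Atrial myocytes store and secrete natriuretic peptide in granules, build their sarcomeres with atrial forms of the myosin light chains, and restrain the calcium pump of the sarcoplasmic reticulum with sarcolipin. Their identity depends on the COUP-TF nuclear receptors, and *Nppa* and *Myl4* are also expressed in the fetal ventricle before they become largely restricted to the atria. *Nppa* is re-expressed in ventricular myocytes under hypertrophic stress.

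Library totals ranged from 8096870 counts in WH8 to 14359838 in WH10. The mature miRNA cannot be read from these gene counts. Of its hairpin genes, *Mir128-1* had 0 counts in all 4 libraries, and *Mir128-2* had 0 counts in both Ctrl libraries, 2 in WH9 and 10 in WH10. *Xist*, made from the inactive X chromosome of female cells, had 14543 counts in WH7, 11339 in WH8, 94 in WH9 and 132 in WH10, and the Y-linked gene *Ddx3y* had 13, 7, 1442 and 1768. Sex coincided with condition, and the 2 cannot be told apart. The tissue label held for muscle genes: the summed level of 10 cardiomyocyte genes shared by atria and ventricles lay between 40791 and 52414 CPM in every library. CPM expresses the reads of a gene relative to the library total, scaled by TMM factors.

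The miRNA that was overexpressed acts on mRNAs that pair with its seed, and its mature sequence is shown with the seed, bases 2 to 8, in capitals (RefSeq, GRCm38.p6).
mmu-miR-128-3p: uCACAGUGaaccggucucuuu
Of the 9 atrial genes, 3 had a seed match in the longest annotated 3′UTR. The capitals in each line mark the letters of the mRNA that pair with the seed, followed in *Nr2f2* by an A.
Nppa 3′UTR site: tcacattgcCACTGTGgcgtggtga
Bmp10 3′UTR site: caggtcttcCACTGTGgcttgccca
Nr2f2 3′UTR site: atttaatggACTGTGAatttcaaaa
The *Nppa* match lay at chr4:148001879-148001885 in exon 3 of 3 (plus strand, GRCm38). The *Bmp10* match lay at chr6:87437147-87437153 in exon 2 of 2, and the *Nr2f2* match at chr7:70354515-70354521 in exon 3 of 3 on the minus strand. The other 6 genes had no match. Of 13337 tested genes with a 3′UTR, 31.0% held at least 1 such match, so 3 of 9 is close to the share among all genes. A match is a description of the sequence and was not taken as a site of action.

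The Ctrl libraries differed widely in atrial transcripts. The 9 genes together made up 0.727% of all counts in WH7 and 0.126% in WH8, while the *miR-128*OE libraries lay in between, at 0.307% in WH9 and 0.373% in WH10. *Nppa* alone took 0.275% of the counts in WH7 and 0.0240% in WH8. In WH8 the level was the lowest of the 4 libraries for 8 of the 9 genes, and in WH7 it was the highest for 7. In bulk tissue, fewer atrial cells, less RNA per atrial cell and a lower level in other cells, such as ventricular myocytes, cannot be told apart.

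**Figure D1:**
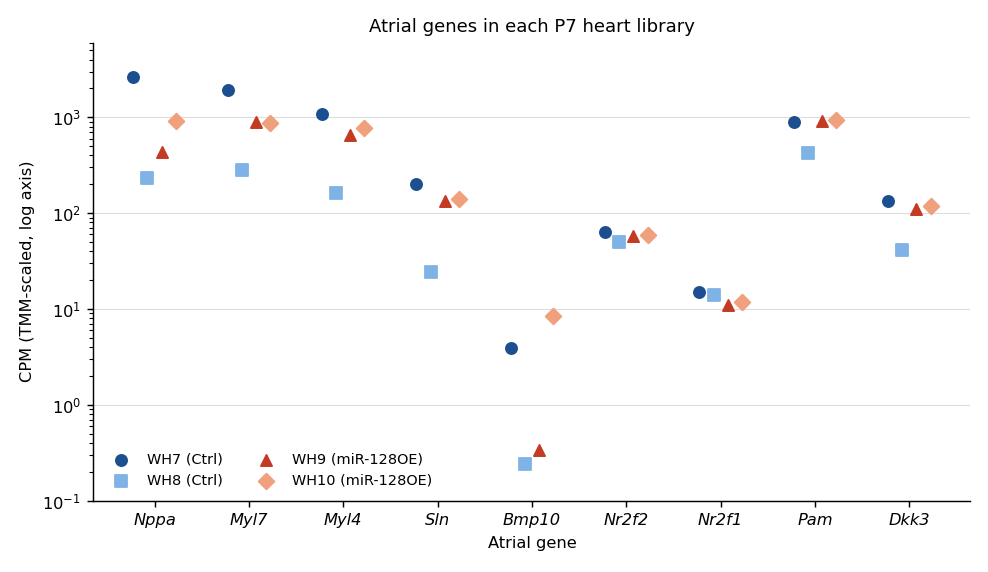
Level of the 9 atrial genes (horizontal axis) in TMM-scaled CPM (vertical axis, log scale), with 1 point for each of the 4 P7 heart libraries. WH8, a Ctrl library, is the lowest point for every gene except *Nr2f1*, and the 2 miR-128OE libraries lie close together except for *Nppa* and *Bmp10*.

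*Nppa* (Entrez Gene 230899, chr4:148000722-148002079, plus strand, GRCm38) encodes the precursor of atrial natriuretic peptide, the hormone by which the stretched atrium promotes salt and water excretion. Its level was 2642 CPM in WH7, 233 CPM in WH8, 439 CPM in WH9 and 921 CPM in WH10. WH7 held 11.3 times the level of WH8 (95% interval from counting error, 10.8 to 11.9), and WH10 held 2.10 times that of WH9 (2.03 to 2.17). Both *miR-128*OE libraries thus lay between the 2 Ctrl libraries, and the groups overlapped. The mean was 1438 ± 1703 CPM in Ctrl and 679.7 ± 341 CPM in *miR-128*OE (SD, n = 2 each), so the spread within Ctrl exceeded the difference between the means. Intervals here and below were set on the counts, and they cover counting error only, since reads without molecular identifiers are not independent molecules.

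*Myl7* (Entrez Gene 17898, chr11:5896637-5898782, minus strand) encodes the atrial regulatory myosin light chain. It was measured at 1949 CPM in WH7, 281 CPM in WH8, 886 CPM in WH9 and 876 CPM in WH10. *Myl4* (Entrez Gene 17896, chr11:104550663-104595753, plus strand), for the atrial essential light chain, was at 1088, 164, 652 and 765 CPM in the same order. The 2 light chains, which sit on the same myosin head, therefore showed the same order of Ctrl libraries, with WH7 far above WH8. WH7 exceeded WH8 by 6.93-fold for *Myl7* (95% counting interval 6.65 to 7.24) and by 6.65-fold for *Myl4* (6.29 to 7.04). Between the *miR-128*OE libraries the ratio of WH10 to WH9 was 0.989 for *Myl7* (0.963 to 1.01) and 1.17 for *Myl4* (1.14 to 1.21), so both were far closer there than in Ctrl.

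*Sln* (Entrez Gene 66402, chr9:53850164-53854560, plus strand) encodes sarcolipin, the small membrane peptide that inhibits the calcium pump in atrial muscle. It had 204 CPM in WH7, 24.1 CPM in WH8, 133 CPM in WH9 and 140.3 CPM in WH10. WH7 was above WH8 by 8.44-fold (95% counting interval 7.31 to 9.79), and WH10 was above WH9 by 1.06-fold (0.988 to 1.13), an interval that includes no difference. The pattern was that of the light chains, with both *miR-128*OE libraries between the 2 Ctrl libraries.

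*Bmp10* (Entrez Gene 12154, chr6:87428994-87437677, plus strand) encodes a BMP ligand that is made in the trabeculae of the embryonic heart and later mainly in the right atrium. It was the sparsest of the 9 genes, with 50 counts in WH7, 2 in WH8, 4 in WH9 and 119 in WH10, which correspond to 3.88, 0.240, 0.336 and 8.50 CPM. One library of each condition was therefore well above the detection floor of 3 counts, and the other was at or near it. WH10 had 25.3 times the level of WH9 (95% counting interval 9.62 to 94.3), and WH7 had 16.2 times that of WH8 (4.25 to 137). *Bmp10* and *Nppa* were the only 2 of the 9 that differed more than 2-fold between the *miR-128*OE libraries. Among all tested genes 1.19% were more than 2-fold higher in WH10 than in WH9.

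*Nr2f2* (Entrez Gene 11819, chr7:70351944-70366735, minus strand) and *Nr2f1* (Entrez Gene 13865, chr13:78188973-78199757, minus strand) encode the nuclear receptors COUP-TFII and COUP-TFI, transcription factors of atrial identity that other cells of the heart, such as venous endothelium and fibroblasts, also make. *Nr2f2* was at 62.9, 49.8, 58.4 and 59.2 CPM in WH7, WH8, WH9 and WH10. *Nr2f1* was at 15.2, 13.9, 11.0 and 11.8 CPM. These 2 genes stood apart from the other 7 in varying little between the Ctrl libraries. WH7 was above WH8 by 1.26-fold for *Nr2f2* (95% counting interval 1.12 to 1.42) and by 1.09-fold for *Nr2f1* (0.865 to 1.39), the latter within counting error. For *Nr2f1*, WH9 and WH10 both lay below WH7 and WH8.

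*Pam* (Entrez Gene 18484, chr1:97795114-98095646, minus strand) encodes peptidylglycine alpha-amidating monooxygenase, an enzyme that amidates peptide hormones and is abundant in the membranes of atrial granules. Its level was 901 CPM in WH7, 420.2 CPM in WH8, 923 CPM in WH9 and 928 CPM in WH10. WH8 alone was low, at a level 2.14-fold under WH7 (95% counting interval 2.06 to 2.23), whereas WH7, WH9 and WH10 lay within 1.03-fold of one another. *Dkk3* (Entrez Gene 50781, chr7:112116017-112159057, minus strand), for a secreted glycoprotein of the Dickkopf family, was at 134, 40.9, 109.8 and 119.5 CPM. It followed the same order as *Sln* and *Myl4*, with WH7 3.26-fold above WH8 (2.90 to 3.67).

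Exons of *Nppa*, *Myl4*, *Nr2f2*, *Nr2f1* and *Pam* share bases with another annotated gene, on the opposite strand for 4 of these 5. Handling of strand in the counting is not given in the sources used here, so reads from the partner gene cannot be told apart from theirs. *Nr2f1* and *Nr2f2* are also related in sequence, and the rule for reads that fit both is not given.

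On the log2 scale, WH7 minus WH8 was 3.50 for *Nppa*, 3.31 for *Bmp10*, 3.07 for *Sln*, 2.79 for *Myl7*, 2.73 for *Myl4*, 1.70 for *Dkk3* and 1.10 for *Pam*, against 0.34 for *Nr2f2* and 0.13 for *Nr2f1*. Thus 7 of the 9 were more than 2-fold higher in WH7, where 2% of all tested genes were, and *Pam* was just inside that limit while *Nr2f2* was the first outside it. The 9 genes were chosen on this difference, so nothing is read from the count. The median difference was 2.73 over the 9 genes and -0.019 over all tested genes. Among 12946 genes whose log2 CPM averaged at least 1, *Nppa* ranked 3 for its excess in WH7, *Bmp10* ranked 4, *Sln* ranked 7, *Myl7* ranked 9 and *Myl4* ranked 14. *Dkk3* followed at rank 39 and *Pam* at rank 133, whereas *Nr2f2* and *Nr2f1* were at ranks 1328 and 3383. Between the *miR-128*OE libraries *Bmp10* ranked 1 and *Nppa* ranked 31 for the excess in WH10, and the log2 difference of the other 7 genes lay between -0.016 and 0.23. *Bmp10*, with 2 counts in WH8 and 4 in WH9, passed the filter on low counts only through WH7 and WH10. Its ranks rest on the same 2 libraries, so nothing is read from them.

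**Figure D2:**
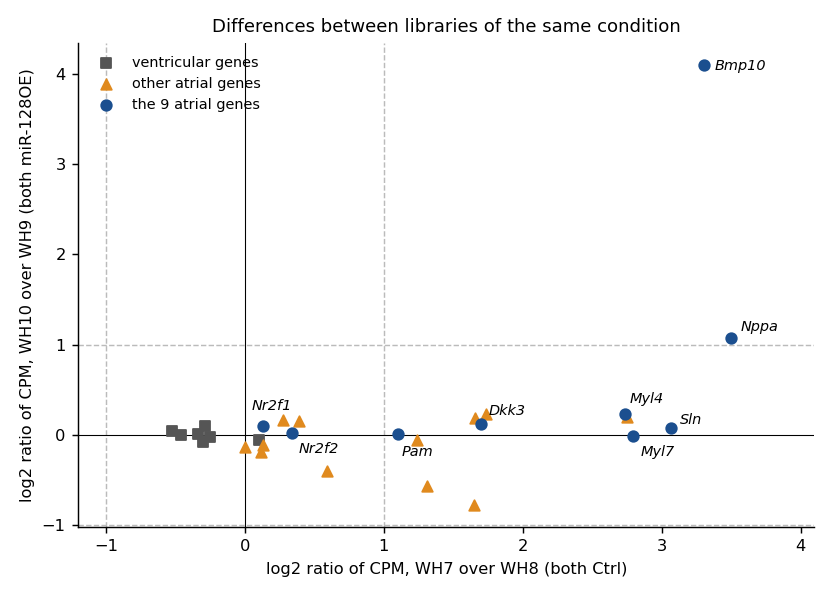
Log2 ratio of CPM between the 2 Ctrl libraries (horizontal axis, WH7 over WH8) and between the 2 miR-128OE libraries (vertical axis, WH10 over WH9), with 1 point per gene and dashed lines at 2-fold. The 9 atrial genes reach 3.50 on the horizontal axis, the 7 ventricular genes lie between -0.52 and 0.10 on it, and of the genes plotted only *Bmp10* and *Nppa* exceed 2-fold on the vertical axis.

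Per kilobase of the longest annotated coding transcript, *Myl7* was the most abundant of the 9 mRNAs in every library, from 476 to 3303 CPM per kilobase. *Nppa* followed at 269.7 to 3054, *Myl4* at 173 to 1154, *Pam* at 102 to 226 and *Sln* at 18.3 to 155 CPM per kilobase. The order of *Nppa* and *Myl4* depended on the library, since *Nppa* was the higher in WH7, WH8 and WH10 and *Myl4* in WH9 (691 against 507 CPM per kilobase). Below these, *Dkk3* had 12.2 to 39.8, *Nr2f2* 11.8 to 14.9, *Nr2f1* 3.44 to 4.75 and *Bmp10* 0.0535 to 1.89 CPM per kilobase. The ranges of *Dkk3* and *Nr2f2* overlapped, although *Dkk3* was the higher in each library.

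Ratios taken within a library do not depend on its scaling. Per kilobase, *Myl4* stood at 34.9%, 36.4%, 46.0% and 54.6% of *Myl7* in WH7, WH8, WH9 and WH10, and *Sln* at 4.68%, 3.84%, 6.71% and 7.17%. These 2 ratios varied by 1.56-fold and 1.87-fold over libraries in which *Myl7* itself varied 6.93-fold, so the ratios varied less than the level. Both ratios were higher in each *miR-128*OE library than in each Ctrl library. The myosin-binding protein H-like gene *Mybphl*, another atrial gene, stood at 1.36%, 1.38%, 1.70% and 1.96% of *Myl7*, a 1.44-fold range with the same split by condition. The splits share the values of *Myl7* and are not separate observations, and sex coincided with condition. In level, 68.1% of all tested genes had no overlap between the groups, and the share for ratios was not counted. Nothing is read from the splits. *Dkk3* ranged 2.13-fold and *Pam* 3.24-fold relative to *Myl7*, both lowest in WH7 and highest in WH8, with *Pam* at 6.65%, 21.5%, 14.99% and 15.2%. *Nppa* stood at 92.5%, 56.6%, 33.8% and 71.7% of *Myl7*, a 2.74-fold range, with WH9 lowest. *Bmp10* ranged 25.6-fold relative to *Myl7*, from 0.00499% in WH9 to 0.127% in WH10.

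*Myl7*, *Myl4*, *Sln* and *Nppa* were each also set against a related gene in the same library. *Myl2* and *Myl3* are ventricular genes, whereas *Pln* and *Nppb* were not listed as such. *Myl7* stood at 34.7% of the ventricular regulatory light chain *Myl2* per kilobase in WH7, 3.96% in WH8, 11.8% in WH9 and 11.6% in WH10. *Myl4* stood at 24.3%, 3.07%, 8.45% and 10.1% of the ventricular essential light chain *Myl3*. *Sln* stood at 22.3%, 1.89%, 7.59% and 9.10% of phospholamban (*Pln*). All 3 ratios put WH7 highest and WH8 lowest, with the 2 *miR-128*OE libraries in between and close to each other. *Nppa* was 34.2 times as abundant as *Nppb*, the gene for B-type natriuretic peptide, in WH7, and 1.96, 1.65 and 2.75 times as abundant in WH8, WH9 and WH10. That ratio reflects both genes, since *Nppb* was at 69.7 and 107 CPM in Ctrl and at 239.9 and 303 CPM in *miR-128*OE.

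**Figure D3:**
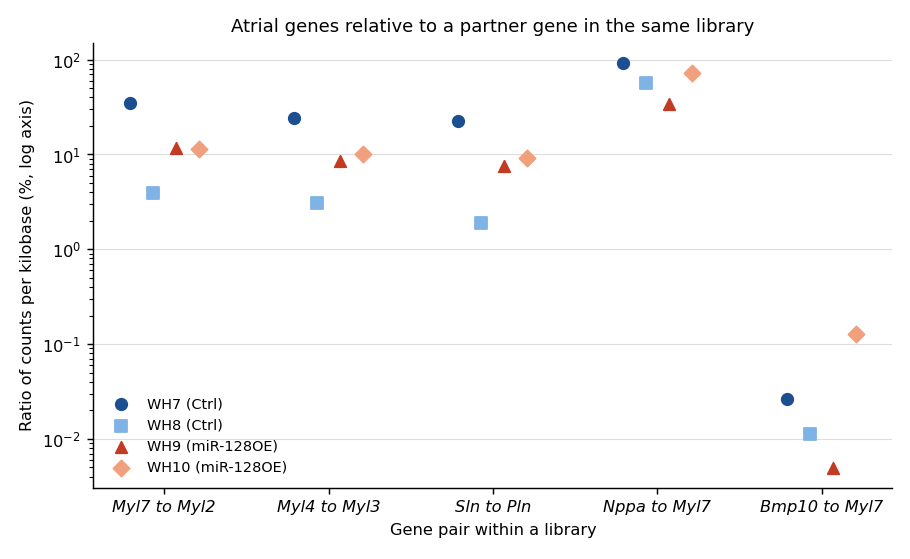
Ratio of counts per kilobase (percent, log axis) for 5 gene pairs within each of the 4 libraries, 1 point per library. *Myl7* to *Myl2*, *Myl4* to *Myl3* and *Sln* to *Pln* are highest in WH7 and lowest in WH8, whereas *Nppa* to *Myl7* varies 2.74-fold and *Bmp10* to *Myl7* 25.6-fold.

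The comparison of *miR-128*OE with Ctrl asks which genes change when *miR-128* is raised in the postnatal heart. None of the 9 atrial genes passed the threshold of 0.05 on the adjusted p-value of edgeR's quasi-likelihood test, in which 31.5% of all tested genes were called, 16.5% higher and 15% lower in *miR-128*OE. At an unadjusted p-value under 0.05 the count was 1, *Nr2f1*, and DESeq2 and edgeR's likelihood ratio test each called 0. In 2 of the 9 genes, *Nr2f1* and *Pam*, the groups did not overlap, where 68.1% of all tested genes had no overlap. Both shares are below those of all tested genes. The members were chosen with these values known, and nothing further is read from the counts.

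The log2 fold change of *miR-128*OE over Ctrl was -1.08 for *Nppa* (SE 0.78, adjusted p = 0.320, edgeR). *Myl7* had -0.34 (SE 0.61), *Myl4* 0.17 (SE 0.59) and *Sln* 0.23 (SE 0.61), with adjusted p-values of 0.701, 0.849 and 0.806. *Bmp10* had 0.98 (SE 1.02, adjusted p = 0.496) and *Dkk3* 0.37 (SE 0.37, adjusted p = 0.486). The standard errors of these genes were 0.37 or more, and in each of them the Ctrl libraries were more than 2-fold apart. *Nr2f2*, whose libraries agreed closely, had 0.052 (SE 0.11, adjusted p = 0.761). *Nr2f1* had -0.36 (SE 0.15, adjusted p = 0.104), and *Pam* had 0.49 (SE 0.26, adjusted p = 0.189). With library totals in place of TMM factors, which moved the median of all genes from -0.014 to -0.11, *Nr2f1* was called lower at -0.46 (adjusted p = 0.0485) and *Nr2f2* had -0.048. The median log2 fold change was 0.17 over the 9 genes and -0.014 over all tested genes.

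The fits with 1 Ctrl library are given as a description only, since the 9 genes were chosen on the gap between WH7 and WH8 and a call against either library alone follows in part from that choice. Against WH8 alone, 6 of the 9 genes were called higher in *miR-128*OE, where 18.2% of all genes tested in that fit were. They were *Sln* at 2.50, *Myl4* at 2.12, *Myl7* at 1.65, *Nppa* at 1.55, *Dkk3* at 1.49 and *Pam* at 1.14 on the log2 scale. *Bmp10* had the highest value, 4.20 with an SE of 1.65, and was not called. Against WH7 alone, 4 genes were called lower, where 14.2% of all genes tested in that fit were, namely *Nppa* at -1.95, *Myl7* at -1.14, *Myl4* at -0.61 and *Sln* at -0.57. The same 4 genes were thus called in opposite directions depending on which Ctrl library remained. Nothing is read from these counts against the shares of all genes. In these fits the single Ctrl library was assumed to vary as the *miR-128*OE pair did.

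None of the other 5 genes was called in both directions. *Pam* was at 0.043 against WH7 alone (SE 0.076), in place of 1.14 against WH8 alone. *Dkk3* went from 1.49 against WH8 to -0.21 against WH7. *Nr2f2* went from 0.24 to -0.094, and *Nr2f1* was lower against either library, at -0.29 and -0.41, without being called. *Bmp10* was above 0 against either Ctrl library, at 4.20 and 0.25. Its direction turned on a *miR-128*OE library, with a log2 fold change of 1.90 without WH9 and -2.69 without WH10, neither of which was called.

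**Figure D4:**
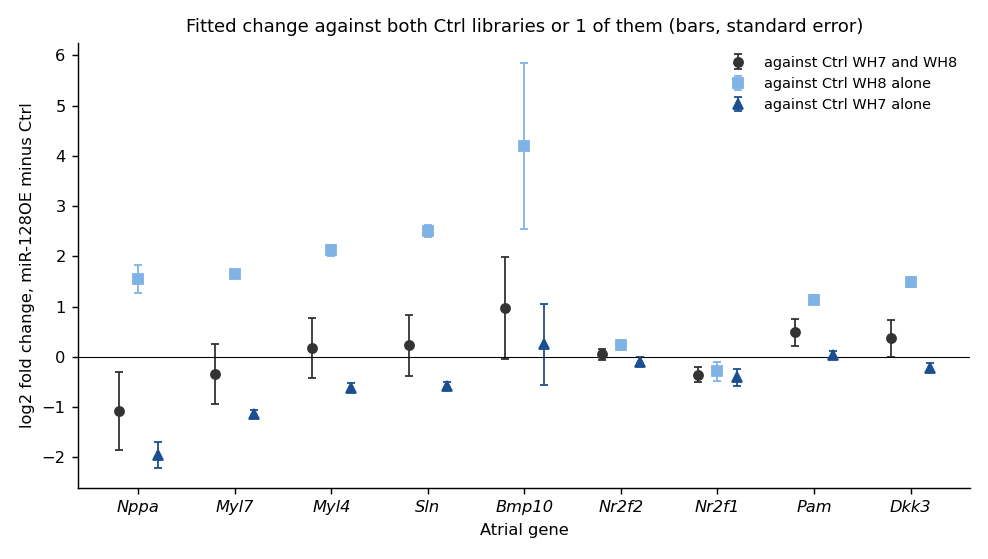
Fitted log2 fold change of miR-128OE over Ctrl (vertical axis) for the 9 atrial genes, against both Ctrl libraries, WH8 alone or WH7 alone, with bars for the standard error. *Nppa*, *Myl7*, *Myl4* and *Sln* lie above 0 against WH8 alone and below 0 against WH7 alone, while *Nr2f1* stays below 0 in all 3.

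Other atrial genes followed in part. Of 12 further genes of the atria, 11 were higher in WH7 than in WH8, with a median log2 difference of 0.91. More than 2-fold higher were 6, where 2% of all tested genes were. The list was chosen with earlier results of these data known, so nothing is read from these counts. *Kcna5*, *Kcnk3*, *Hey1* and *Kcnj5* differed little, with WH7 above WH8 by 1.08, 1.09, 1.21 and 1.31-fold. *Mybphl* was the most uneven at 57.4, 8.40, 32.5 and 37.2 CPM in WH7, WH8, WH9 and WH10. The inward rectifier *Kcnj3*, a subunit of the acetylcholine-activated potassium channel, had 53.4, 16.0, 38.8 and 45.4 CPM, and the transcription factor *Tbx5* had 51.9, 21.8, 59.4 and 57.1 CPM. None of the 12 differed by more than 2-fold between the *miR-128*OE libraries. In the comparison of conditions 3 of the 12 were called, where 31.5% of all tested genes were. The 2 that rose were the potassium channel *Kcnk3* by 1.11 and the Notch target *Hey1* by 0.37 on the log2 scale (adjusted p = 4.93e-05 and 0.0384, edgeR). *Corin*, the protease that cleaves the *Nppa* product, fell by 0.29 (adjusted p = 0.0287) and was at 96.4 CPM in both Ctrl libraries.

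Ventricular genes did not share the difference between WH7 and WH8. None of the 7 tested was more than 2-fold apart, and 6 were lower in WH7, with a median log2 difference of -0.30. In *miR-128*OE against Ctrl 6 of the 7 were called, where 31.5% of all tested genes were, and the median log2 fold change was -0.57. *Myh7* rose by 1.55 and *Myl3* by 0.64 on the log2 scale, and the transcription factors *Hey2*, *Irx3*, *Irx4* and *Irx5* fell by 0.85, 0.81, 0.63 and 0.57 (adjusted p from 1.11e-04 to 0.0290, edgeR). *Myl2*, at 8469 CPM in WH7, 10705 in WH8, 11353 in WH9 and 11420.1 in WH10, was not called (adjusted p = 0.137). Of the 10 shared cardiomyocyte genes none was more than 2-fold apart between the Ctrl libraries, and their median log2 difference was -0.066.

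The partners of the 9 genes in their pathways were counted in the same fit, in which 16.5% of all tested genes were called higher and 15% called lower. The median log2 fold change of all tested genes was -0.014. In the natriuretic peptide system, 3 of 10 genes were called higher and 2 called lower, with a median of 0.091. *Nppb* rose by 1.63 (adjusted p = 2.93e-04), *Furin*, a proprotein convertase that processes its precursor, by 0.57 and the peptide-degrading neprilysin gene *Mme* by 0.93, while *Corin* and the receptor *Npr2* fell by 0.29 and 0.44. The clearance receptor *Npr3* had 63.1 CPM in WH7 against 20.5 in WH8. Thus *Nppb* and *Nppa*, which are often measured together, differed in pattern, with *Nppb* higher in each *miR-128*OE library than in each Ctrl library and the groups of *Nppa* overlapping.

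Among 6 tested genes of the calcium pump and its regulators 4 were called higher and none was called lower (median 0.54), against the same 16.5% higher and 15% lower of all tested genes. The 4 were the pump *Atp2a2* (0.55), *Pln* (0.59) and the calsequestrins *Casq2* (0.53) and *Casq1* (2.91), with adjusted p-values from 1.58e-06 to 0.0143. *Atp2a1* and *Atp2a3* had values of -1.08 and -0.41 and were not called (adjusted p = 0.083 and 0.081, edgeR). *Sln*, by contrast with the 4 called genes, overlapped between the groups. Of 15 tested receptors and targets of BMP signaling, 6 were called higher and 1 was called lower, with a median of 0.080. *Smad7* rose by 0.81, *Tbx20* by 0.82, *Id1* by 0.48 and *Bmpr2* by 0.51, and *Id2* fell by 0.49. None of the 15 was more than 2-fold apart between libraries of 1 condition, although *Bmp10* was. Of 11 myosin light chain and kinase genes outside the 9, *Myl3* and *Myl12a* were called higher and none was called lower. *Myl1* alone was more than 2-fold higher in WH7 than in WH8, at 76.8 against 17.5 CPM. Of 7 tested genes of the sinus node and conduction system *Vsnl1* alone was called and was higher, as was *Kremen1* alone of 5 tested Dickkopf and WNT coreceptor genes, and none of 5 tested genes of peptide granules was called by edgeR, with 1, *Cpe*, at an unadjusted p-value under 0.05.

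Markers of other tissue moved with the atrial genes in part. The summed level of 4 genes of epicardium and mesothelium was 105.8 CPM in WH7 and 51.7, 61.8 and 56.4 CPM in WH8, WH9 and WH10, with all 4 higher in WH7 than in WH8 and *Upk3b* and *Msln* by more than 2-fold. The 6 fibroblast genes summed to 8672, 5613, 7461 and 8036 CPM and were all higher in WH7 than in WH8, with none over 2-fold. The 3 endocardial genes summed to 135.5, 71.1, 98.5 and 97.2 CPM. Of these, *Npr3* and *Plvap* were highest in WH7, whereas *Nfatc1* had 30.5, 27.0, 48.2 and 40.6 CPM in WH7, WH8, WH9 and WH10. The 4 smooth muscle genes summed to 1071, 927, 1266 and 1645 CPM, and all 4 were higher in WH7 than in WH8. *Cnn1* alone was more than 2-fold apart within a condition, at 28.0 CPM in WH7 and 13.3 CPM in WH8, and at 19.8 CPM in WH9 and 46.9 CPM in WH10. The 4 adipose genes summed to 33.1, 33.3, 71.3 and 54.2 CPM, and *Ucp1*, the uncoupling protein of brown fat, had 56 counts in WH7, 3 in WH8, 253 in WH9 and 189 in WH10. In *miR-128*OE 3 of the 4 adipose genes were called higher, where 16.5% of all tested genes were. *Ucp1* rose by 2.69 on the log2 scale (adjusted p = 0.00418, edgeR). *Plin1* had 0.87 and was not called (adjusted p = 0.105). The 4 macrophage genes summed to 62.0, 45.1, 46.9 and 47.7 CPM, and 3 of them were higher in WH7 than in WH8, with 0 over 2-fold. In WH7 and WH8 *Csf1r* was at 30.2 and 16.8 CPM and *Adgre1* at 6.21 and 3.96 CPM. *Mrc1* differed little, at 18.9 and 17.0 CPM, and *Cd68* was lower in WH7, at 6.68 and 7.32 CPM. Genes of venous and lymphatic endothelium, which also make *Nr2f2*, summed to 623, 592, 637 and 581 CPM, and 5 of the 8 were higher in WH7 than in WH8, with 0 over 2-fold. *Aplnr*, the largest part of that sum, was at 235 CPM in WH7 and 230 CPM in WH8. *Lyve1* was at 18.9 and 11.5 CPM and *Pdpn* at 16.2 and 9.84 CPM, while *Prox1* was lower in WH7, at 16.7 and 19.8 CPM. No list had a defining marker at 0 among these. The part of these cells in the atrial differences was not tested. The 4 lung and 3 liver genes summed to at most 0.699 and 6.06 CPM in any library.

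Across all genes, the patterns nearest to a member were sought by the Euclidean distance between log2 CPM values centred on their mean over the 4 libraries, among 12945 other genes. The 5 nearest to *Myl7* were *Tmem163*, *Adcy1*, *Podn*, *Fgf12* and *Mybphl*, at distances of 0.15 to 0.43. *Tmem163* had 33.8, 4.68, 15.7 and 13.6 CPM in WH7, WH8, WH9 and WH10, and *Fgf12* had 47.7, 5.40, 23.2 and 22.7 CPM. *Nppa* had no gene as near, since its 5 nearest, *Ahsg*, *Adcy1*, *Myl7*, *Igfbp2* and *Podn*, lay at distances of 1.00 to 1.13. With 4 libraries, 2 of which dominate the pattern, such a likeness is only a description.

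*Nppa*, *Myl7*, *Myl4* and *Bmp10* were all more than 2-fold apart between the Ctrl libraries. The 250 bases before their start sites are shown in the direction of transcription, from RefSeq (GRCm38.p6), with matches to the searched motifs in capitals. The table of promoters held 7 of the 9 genes, without *Sln* and *Dkk3*. *Pam*, 2.14-fold higher in WH7 than in WH8, held no match and is not printed. A relation between motifs and unevenness was not tested.
Nppa promoter: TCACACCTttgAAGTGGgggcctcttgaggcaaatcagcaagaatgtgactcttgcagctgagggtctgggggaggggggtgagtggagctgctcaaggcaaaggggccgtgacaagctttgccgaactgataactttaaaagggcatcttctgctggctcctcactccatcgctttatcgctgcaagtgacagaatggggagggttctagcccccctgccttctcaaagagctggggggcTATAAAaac
Myl7 promoter: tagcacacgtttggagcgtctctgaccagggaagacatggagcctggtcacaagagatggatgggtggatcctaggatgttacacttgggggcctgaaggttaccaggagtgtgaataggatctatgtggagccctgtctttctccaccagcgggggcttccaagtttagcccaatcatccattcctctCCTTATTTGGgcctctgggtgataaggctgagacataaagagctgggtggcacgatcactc
Myl4 promoter: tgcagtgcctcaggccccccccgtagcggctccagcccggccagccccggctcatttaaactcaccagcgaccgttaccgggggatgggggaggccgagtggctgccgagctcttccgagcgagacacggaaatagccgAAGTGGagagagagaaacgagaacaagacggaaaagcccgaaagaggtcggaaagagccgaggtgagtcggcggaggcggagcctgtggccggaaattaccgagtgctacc
Bmp10 promoter: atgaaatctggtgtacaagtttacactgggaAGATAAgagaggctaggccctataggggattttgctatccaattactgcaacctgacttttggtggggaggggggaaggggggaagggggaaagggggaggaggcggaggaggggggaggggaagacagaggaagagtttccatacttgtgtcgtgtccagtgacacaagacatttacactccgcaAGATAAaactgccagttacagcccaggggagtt
These stretches lie at chr4:148000472-148000721 (plus strand), chr11:5898783-5899032 (minus), chr11:104550413-104550662 (plus) and chr6:87428744-87428993 (plus). Both strands were searched, over windows that also took in 50 bases after the start. The letters searched were AGATAA for GATA factors, AAGTGG for NKX2-5, AGGTGTGA for TBX5, AGGTCA for NR2F receptors and TATAAA for the TATA box, with the MEF2 and CArG motifs by name, and those of the TATA box can overlap MEF2 and CArG. *Nppa* held TBX5 letters at -250, NKX2-5 letters at -239 and a TATA box at -9 from the start, *Myl7* a CArG box at -61, *Myl4* NKX2-5 letters at -111, and *Bmp10* GATA letters at -219 and -33. Of all 32851 promoters, 1.28% held the TBX5 letters, 1.63% a CArG box, 11.2% the GATA letters, 13.6% the TATA box and 16.9% the NKX2-5 letters. In the letters searched, no motif was shared by more than 2 of the 4 printed promoters, and the windows of *Nr2f2*, *Nr2f1* and *Pam* held none of the 7 motifs. The spelling TGATAA of the GATA motif was not searched, and it occurs in the printed stretches of *Nppa* and *Myl7*. A match here is a description of the letters and not a site.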

How the data were processed

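RNA-seq counts of P7 mouse hearts were analysed, with 2 Ctrl and 2 *miR-128*OE libraries. Reads were filtered for quality by the authors, mapped to mm10 with TopHat and counted on known genes, and the deposited values are raw counts per gene and library with no normalization. Gene models and strand handling are not given in the sources used here. The submitters' processing notes also name bcl2fastq and edgeR.

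From these counts, edgeR 4.0.16 (R 4.3.3) was run on the 4 libraries, with low counts removed by filterByExpr at its defaults and TMM factors for scaling. The quasi-likelihood test gave p-values for 14266 genes, which were corrected after Benjamini and Hochberg, and 0.05 was the threshold. The test was checked on simulated counts. Ratios between 2 libraries are of TMM-scaled CPM, with a prior count of 2 on the log2 scale and exact 95% binomial intervals. Of 24454 Entrez Gene identifiers 24380 were matched to a symbol, and places are from GENCODE M21 (GRCm38). Library totals were 12385863 (WH7), 8096870 (WH8), 12440553 (WH9) and 14359838 (WH10) counts, and 3 counts were taken as the floor. Alternatives were DESeq2 1.42.0, the likelihood ratio test, DESeq2 size factors, library totals, no filter, other prior counts and folds, and each library left out.

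The members, gene lists and alternatives were chosen with earlier results of these data known. The text names the 9 members, genes of the lists by count and example, and the 5 nearest patterns to *Nppa* and to *Myl7*. Examples within a list were picked with their values in view. 1 gene of the lists is not reported here by name. RNA-seq at P1 and P28 was not analysed here.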

Additional observations from a re-analysis of the deposited data

How the results depend on the processing

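The number of the 9 atrial genes called in *miR-128*OE against Ctrl was 0 as reported, with DESeq2, with the likelihood ratio test and with DESeq2 size factors. It was 1 with library totals and 6 without the filter on low counts, and it ranged from 0 to 6 when 1 library was left out. Without the filter edgeR's prior degrees of freedom were infinite, against 7.44 with it. The spread of a gene was then taken from the fit over all genes and not from its own libraries. The widely separated Ctrl values of *Nppa* therefore no longer raised its error. The number of all genes called was 4490 and ranged from 1564 to 5038 over the fits without 1 library, being lowest without WH9, and 2285 without WH10. Library totals lowered the share of higher calls from 52.3% to 35.3%. For the 12 other atrial genes 3 calls became 1 with DESeq2 and 6 without the filter, and from 1 to 8 when 1 library was left out. The 7 ventricular genes had from 4 to 7 calls in all fits. With 1 library left out, the log2 fold change ranged from -1.95 to 1.55 for *Nppa*, from -1.14 to 1.65 for *Myl7*, from -0.61 to 2.12 for *Myl4*, from -0.57 to 2.50 for *Sln*, from -0.21 to 1.49 for *Dkk3* and from -0.094 to 0.24 for *Nr2f2*, each time lowest without WH8 and highest without WH7. It ranged from -2.69 without WH10 to 4.20 without WH7 for *Bmp10*. That of *Nr2f2* turned to -0.048 with library totals. Counts of genes more than 2-fold apart within a condition stayed at 7 and 2 with library totals, a prior count of 0.5 or a limit of 1.5-fold. No paired analysis was possible because the 2 groups share no replicate number. Depth limits *Bmp10* most, with 2 counts in WH8 and 4 in WH9.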
